A study of Mus musculus with 24 samples.

Results

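The R-spondin module of Wnt signaling was followed through every library of this study as 9 genes chosen by name, of 56748 genes in the deposited count table: the ligands Rspo1, Rspo2, Rspo3 and Rspo4, their receptors Lgr4, Lgr5 and Lgr6, and the membrane ligases Znrf3 and Rnf43. All 9 had enough counts to be tested in every comparison. The libraries came from the mesenchyme of mandibular first molar tooth germs of ICR mouse embryos, an outbred stock, with no allele or transgene named in the labels. Cap-W and Bell-W were undivided mesenchyme of the cap stage (E13) and the bell stage (E15), Cap-L and Bell-L the lingual part, toward the tongue, and Cap-B and Bell-B the buccal part, toward the cheek. The same parts of the cap stage after 2 days in vitro made up Cap-L+2D and Cap-B+2D. Each of these 8 groups had 3 libraries, 24 in all. The parts were cut with a needle and the mesenchyme was freed with dispase II. Embryos came from 3 pregnant mice, and the labels do not say whether libraries of a group came from separate animals, so p-values here measure only the spread between these libraries. The paper's methods name both sequencing in triplicate and 2 biological replicates, so libraries of a group may not all be separate biological samples.

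R-spondins are secreted proteins that strengthen the response of a cell to Wnt ligands. Znrf3 and Rnf43 mark Frizzled receptors for removal from the cell surface; an R-spondin that binds an Lgr receptor and one of these ligases takes the ligase away, so that more Frizzled stays in place. Lgr5, Znrf3 and Rnf43 are also known targets of Wnt/beta-catenin signaling, and Wnt signaling between the epithelium and the mesenchyme is needed for tooth development.

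The positions of the 9 genes, in GRCm39 and as spanned by their annotated exons, were as follows. Among the ligands, Rspo1 (ENSMUSG00000028871) lies at chr4:124880223-124902892 and Rspo4 at chr2:151684847-151716588, both on the forward strand. Rspo2 lies at chr15:42884190-43034222 and Rspo3 at chr10:29328412-29411863, both on the reverse strand. Of the exon bases of Rspo3, 13.1% are shared with Gm48159 on the other strand, and because strand was ignored in counting, read pairs there were not assigned to either gene. The other 8 genes share no exon base with another gene. Lgr4 lies at chr2:109747992-109844602 on the forward strand, and Lgr5 at chr10:115286216-115423685 and Lgr6 at chr1:134911039-135033014 on the reverse strand. Znrf3 lies at chr11:5226324-5394847 on the reverse strand and Rnf43 at chr11:87553548-87626365 on the forward strand. The largest differences of the family were those of Rspo4, so 111 bases of its RefSeq promoter window are shown, located at chr2:151684597-151684707 of GRCm39 on the forward strand. They end just before base 151684708, where the gene starts in GENCODE vM39, an annotation that begins it upstream of the exons used for counting.
Rspo4 upstream: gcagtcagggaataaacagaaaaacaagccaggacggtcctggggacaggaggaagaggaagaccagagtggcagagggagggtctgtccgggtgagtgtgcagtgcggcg
This stretch is 59.5% G and C. The letters CTTTGAT, a motif of the Tcf/Lef factors that act with beta-catenin, were searched on both strands of the RefSeq promoter windows of 300 bases, which the table held for 5 of the 9 genes (Rspo1, Rspo4, Lgr4, Lgr6 and Rnf43). None of their 6 windows held it, while 3.73% of all 32851 windows did.

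Library totals ranged from 20581720 to 39266497 counted read pairs, with a median of 27677163, so 3 counts corresponded to 0.0764 to 0.146 counts per 1000000 (CPM). Levels are given as CPM normalized across the 24 libraries, and levels of different genes are compared only per kilobase of exon (RPKM). The length used is that of all annotated exons of a gene, so ranks between genes depend on it. All 10 dental mesenchyme markers, such as Msx1, Pax9 and Lhx6, were above 3 counts in every group, and their summed level lay between 2395 and 4501 CPM in every library. Epithelial markers were present too, with the most in Bell-W replicate 3, whose 12 markers summed to 1963 CPM against 576 and 495 in the other Bell-W libraries. Cap-W replicate 1 held 5.39% of its counts on Rn18s-rs5, a ribosomal RNA gene, against at most 1.43% in any other library. Changes of the 9 genes from Cap-W to Bell-W are therefore given with and without these libraries. Bulk RNA cannot tell fewer cells of a type from less RNA per cell, and this holds for each difference below.

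Per length, Rspo1 was the most abundant R-spondin in 23 of 24 libraries, and Rspo3 exceeded it in Cap-W replicate 1 alone. Together the 4 ligands reached 39.6 ± 1.3 RPKM (SD, n = 3) in Cap-L and 28.5 ± 1.2 in Cap-B. Their mixture differed between the parts: Rspo3 made up 33.2% ± 1.3 of the ligand sum in Cap-L and 16.8% ± 0.5 in Cap-B, while Rspo2 made up 6.33% ± 0.17 and 19.8% ± 0.8. Rspo4 held 1.73% of the sum in Cap-L but 8.72% in Cap-L+2D, 6.96% in Bell-L and 10.8% in Bell-W. Among the receptors, Lgr5 was highest per length in all libraries of Cap-W, Cap-L, Cap-B, Cap-L+2D and Bell-L, and Lgr4 in all of Cap-B+2D, Bell-B and Bell-W. In CPM, Lgr5 was above Lgr4 in Cap-B+2D (123 against 82.3) and in Bell-B (92.7 against 68.1). The rank in these groups thus rests on the exon lengths, 10264 bases for Lgr5 and 5884 for Lgr4. Lgr6 was the lowest receptor in every library, at 6.49% to 21.9% of the receptor sum by group mean. Znrf3 exceeded Rnf43 in all 24 libraries, at 69.6% of the ligase sum in Cap-L and 91.9% in Cap-B+2D.

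**Figure D1:**
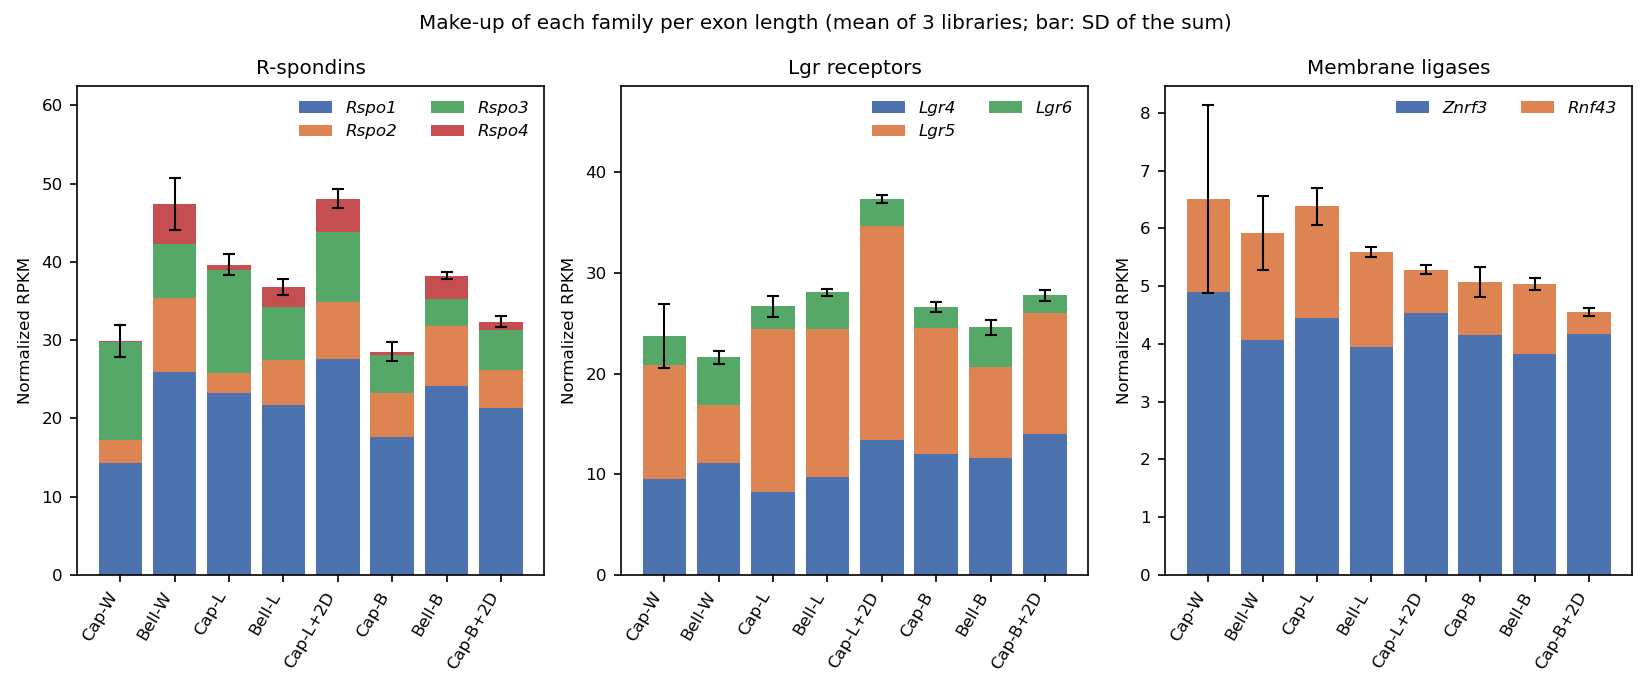
Mean normalized RPKM (levels per kilobase of exon, vertical axes) of the ligands, the Lgr receptors and the ligases in the 8 groups, stacked by gene, with the SD of the sum over 3 libraries as the error bar. Rspo1 was the largest part of the ligand sum in every group, the Rspo4 part was largest in Bell-W at 5.11 RPKM, and the receptor sum was highest in Cap-L+2D at 37.4 RPKM.

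The first question was whether the parts differ. Log2 fold changes between sides are buccal over lingual, and a gene was called at an edgeR adjusted p under 0.05 (quasi-likelihood test, Benjamini-Hochberg over all genes tested) with an absolute log2 fold change over 0.5. At the cap stage, 4 of the 9 genes were called, where 17.5% of all genes tested were: Rspo2 and Lgr4 were higher in Cap-B, and Rspo3 and Rnf43 were higher in Cap-L. At the bell stage, 2 of 9 were called against 12.9% of all genes (6.88% higher in Bell-L), Rspo3 and Lgr5, both higher in Bell-L. Between the cultured parts, 6 of 9 were called against 25.1% of all genes (12.5% higher in Cap-L+2D), and all 6 (Rspo2, Rspo3, Rspo4, Lgr5, Lgr6 and Rnf43) were higher in Cap-L+2D. With 9 genes, none of these shares, nor any given further on, is read as particular to the family. The median difference over the 9 genes was -0.34, 0.12 and -0.60 in these comparisons, and the median over all genes tested lay between -0.033 and 0.0050 in every comparison of the study.

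**Figure D2:**
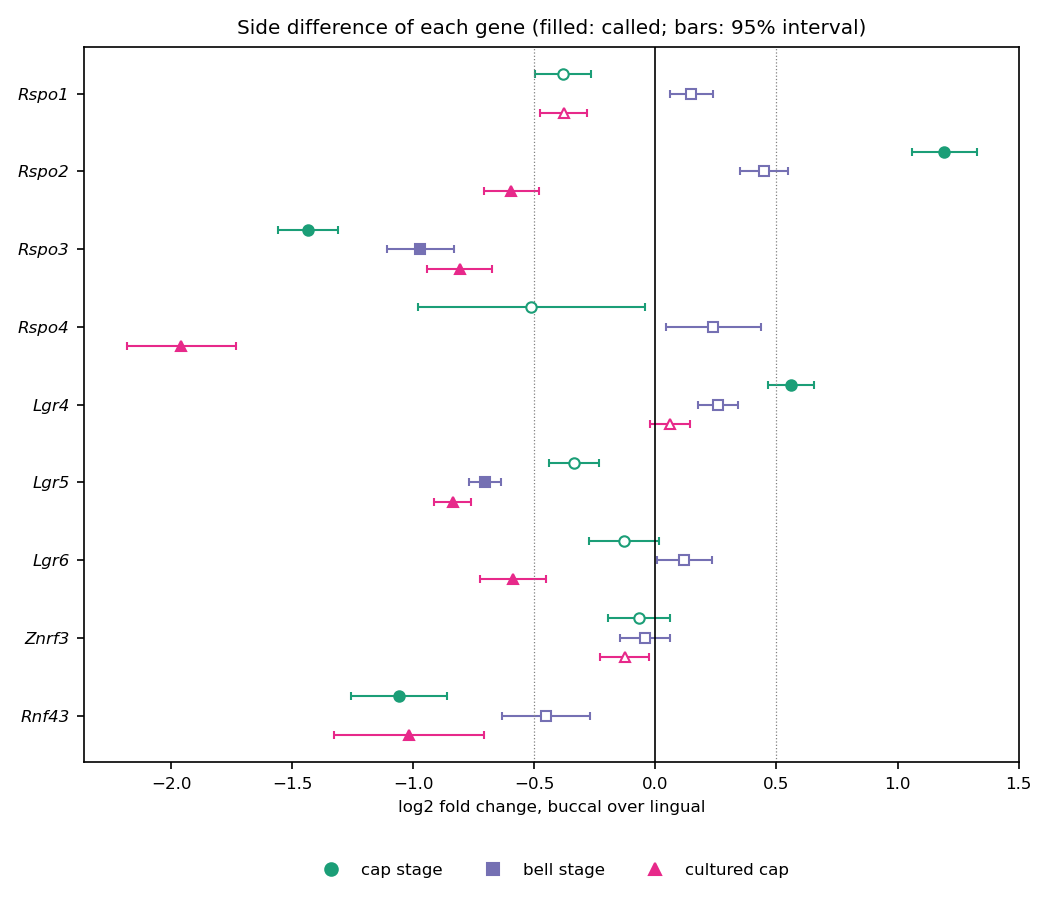
Log2 fold change, buccal over lingual, with its 95% interval (horizontal axis) for the 9 genes at the cap stage, at the bell stage and after 2 days of culture. Filled symbols were called and dotted lines mark the limit of 0.5. Rspo3 lay to the lingual side in all 3 comparisons, and Rspo2 lay to the buccal side before culture and to the lingual side after it.

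Rspo1 was measured at 43.0, 47.7 and 44.7 CPM in Cap-L and at 36.0, 33.7 and 32.7 CPM in Cap-B. The ranges did not overlap, and the difference of -0.38 ± 0.06 (SE, edgeR adjusted p = 1.84e-05) was past the test but under the limit on the fold. At the bell stage the order was the opposite, with 43.6, 40.4 and 42.5 CPM in Bell-L against 47.9, 45.7 and 46.5 in Bell-B. That difference was 0.15 ± 0.04, or 1.108-fold (edgeR adjusted p = 0.00593), under the limit on the fold. It did not pass with all 24 libraries in 1 fit (edgeR adjusted p = 0.305) or without Bell-L replicate 2 (edgeR adjusted p = 0.0636). The cultured parts again differed toward the lingual side, by -0.38 ± 0.05 (edgeR adjusted p = 2.26e-07), with 54.5, 52.9 and 53.2 CPM in Cap-L+2D and 39.3, 41.2 and 43.7 in Cap-B+2D. Rspo1 thus differed by 1.303- and 1.301-fold between the parts at the cap stage and in culture.

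Rspo2 was the ligand with the opposite side preference at the cap stage. It stood at 12.2, 13.7 and 12.6 CPM in Cap-L and at 29.4, 28.3 and 29.03 in Cap-B, a log2 difference of 1.19 ± 0.06 or 2.29-fold (edgeR adjusted p = 2.56e-11). At the bell stage Bell-B remained above Bell-L, with 39.5, 38.2 and 40.2 against 29.4, 27.7 and 29.3 CPM, but the difference of 0.45 ± 0.05 (edgeR adjusted p = 2.62e-10) fell short of the limit on the fold. After culture the lingual part was the higher one, at 37.7, 38.8 and 35.6 CPM against 26.2, 24.0 and 24.1. The difference there was -0.60 ± 0.05 (edgeR adjusted p = 9.58e-10), and in each of these 3 comparisons no library of one part overlapped the other part.

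Rspo3 was higher in the lingual part throughout. Its levels were 41.5, 40.7 and 39.8 CPM in Cap-L and 15.1, 15.2 and 14.0 in Cap-B, which is 2.70-fold (log2 -1.44 ± 0.06, edgeR adjusted p = 6.67e-13). Bell-L gave 20.5, 20.6 and 21.8 CPM and Bell-B 9.68, 11.4 and 11.1, a difference of -0.97 ± 0.07 (edgeR adjusted p = 1.18e-15). The cultured parts stood at 29.3, 27.2 and 26.4 CPM and at 17.2, 15.4 and 14.6, a difference of -0.81 ± 0.07 (edgeR adjusted p = 8.88e-11). The lingual libraries were above the buccal libraries in all 3 comparisons.

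Rspo4 was low at the cap stage, with 42 to 61 counts in a Cap-L library (1.68, 1.70 and 1.48 CPM) and 19 to 32 in a Cap-B library (1.44, 1.21 and 0.74 CPM). The side difference there, -0.51 ± 0.22, did not pass the test (edgeR adjusted p = 0.0732), and it depended on single Cap-B libraries. It was -0.72 and passed without Cap-B replicate 1 (edgeR adjusted p = 0.0331), and it was -0.27 and did not pass without Cap-B replicate 3. It also passed with no filter on low counts and with all 24 libraries in 1 fit (edgeR adjusted p = 0.0438 and 0.0465), and not under DESeq2. Bell-L stood at 6.31, 6.42 and 5.45 CPM and Bell-B just above it at 7.35, 7.36 and 6.69. That difference was 0.24 with a 95% interval of 0.04 to 0.43 (edgeR adjusted p = 0.0476), under the limit on the fold. It did not pass the test under DESeq2, with no filter or with all 24 libraries in 1 fit. Nor did it pass without Bell-L replicate 1 or 3, or without Bell-B replicate 1 or 2. It passed without Bell-L replicate 2 or Bell-B replicate 3. It also passed under RLE and library-total scaling, with a replicate block and with at least 10 counts in every library. The cultured parts were far apart: 10.3, 10.1 and 9.39 CPM in Cap-L+2D against 2.22, 2.58 and 2.91 in Cap-B+2D. This was the largest side difference among the 9 genes, 3.89-fold (log2 -1.96 ± 0.11, edgeR adjusted p = 4.97e-14).

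**Figure D3:**
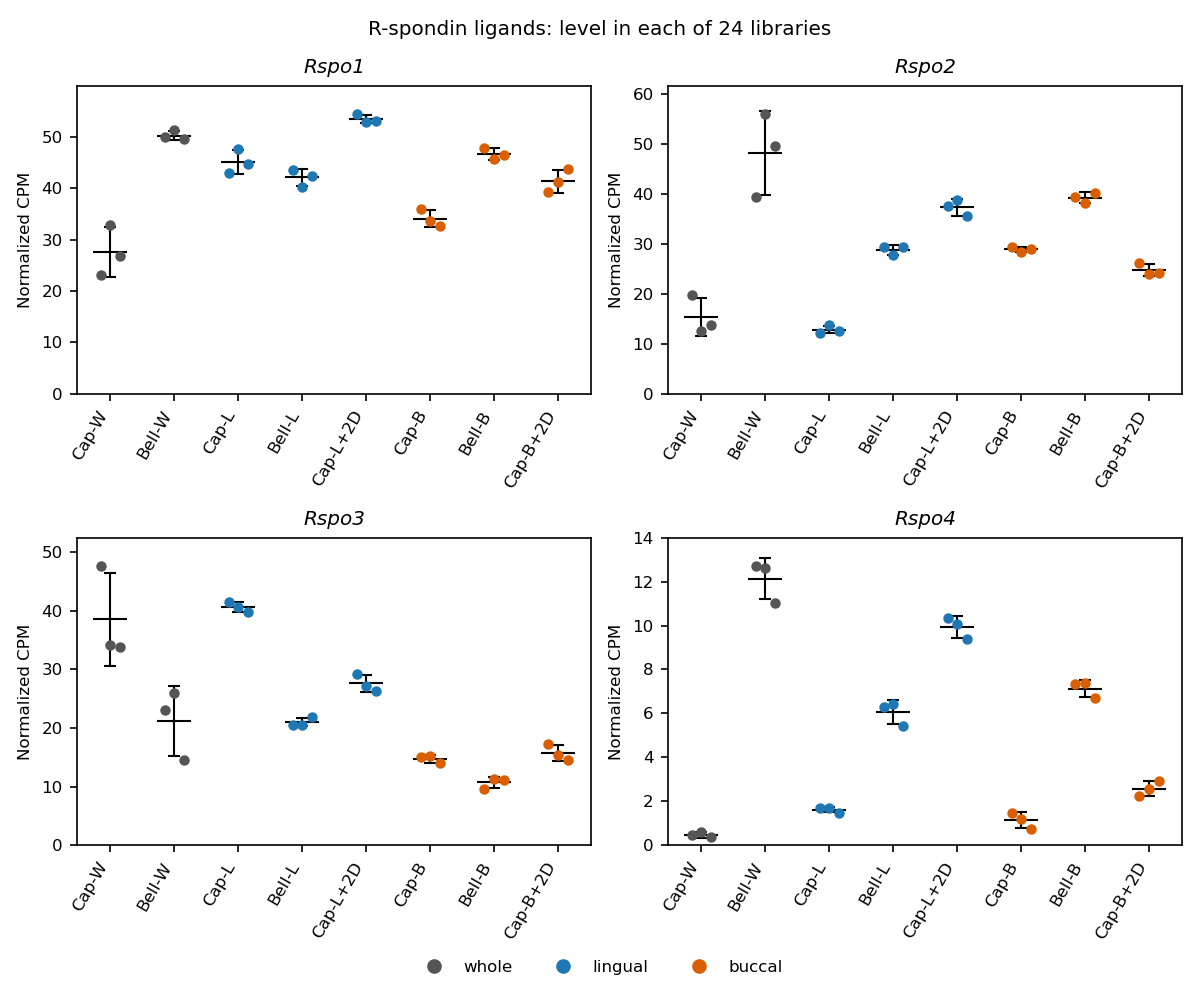
Normalized CPM (vertical axes, from 0) of the 4 ligands in each of the 24 libraries by group. Each point is a library, the horizontal mark is the group mean and the bar is the SD over 3 libraries. Rspo4 ranged from a mean of 0.47 CPM in Cap-W to 12.1 CPM in Bell-W, and Rspo1 varied least, by 1.94-fold between its highest and lowest group mean.

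Ordered by group mean, Rspo1 ran from Cap-L+2D (53.5 CPM) through Bell-W, Bell-B, Cap-L, Bell-L, Cap-B+2D and Cap-B to Cap-W (27.6 CPM). Libraries of neighbours in this order overlapped from Bell-B to Cap-B+2D and between Cap-B and Cap-W. Rspo2 ran from Bell-W (48.3 CPM) through Bell-B, Cap-L+2D, Cap-B, Bell-L, Cap-B+2D and Cap-W to Cap-L (12.8 CPM), with gaps only under Cap-L+2D, Bell-L and Cap-B+2D. Rspo3 ran from Cap-L (40.6 CPM) through Cap-W, Cap-L+2D, Bell-W, Bell-L, Cap-B+2D and Cap-B to Bell-B (10.7 CPM), with overlap inside the pairs Cap-L and Cap-W, Bell-W and Bell-L, and Cap-B+2D and Cap-B. For Rspo4 no neighbours overlapped, in the order Bell-W, Cap-L+2D, Bell-B, Bell-L, Cap-B+2D, Cap-L, Cap-B and Cap-W.

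Of the receptors, Lgr4, the most widely expressed of them, was higher in Cap-B (71.9, 70.1 and 69.4 CPM) than in Cap-L (48.8, 47.9 and 49.2 CPM), by 0.56 ± 0.05 (edgeR adjusted p = 1.11e-08). The parts differed by 0.26 ± 0.04 at the bell stage (edgeR adjusted p = 1.36e-06), and by 0.06 in culture, with a 95% interval of -0.02 to 0.14. Lgr5, a receptor that marks stem cells in several epithelia, was higher in the lingual part each time. It stood at 171, 155 and 171 CPM in Cap-L and 132, 127 and 128 in Cap-B, a difference of -0.34 ± 0.05 (edgeR adjusted p = 2.13e-05). The difference was larger at the bell stage, -0.70 ± 0.03 (151, 155 and 148 against 94.1, 93.2 and 90.9 CPM; edgeR adjusted p = 2.54e-21). In culture it was -0.84 ± 0.04, with 220, 222 and 214 CPM in Cap-L+2D and 125, 122 and 122 in Cap-B+2D (edgeR adjusted p = 4.14e-16). Lgr6 differed between the parts by -0.13 at the cap stage (95% interval -0.28 to 0.01) and by 0.12 at the bell stage (0.01 to 0.23), neither past the test. After culture its lingual level was 1.504-fold higher (-0.59 ± 0.07, edgeR adjusted p = 3.54e-08).

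Of the ligases, Znrf3 was called in none of the comparisons, at group means of 30.2 to 38.7 CPM, and its side difference was at most -0.13 (culture, 95% interval -0.23 to -0.03). Rnf43 was higher in the lingual part, with 12.7, 12.0 and 13.6 CPM in Cap-L against 5.51, 5.73 and 6.69 in Cap-B, a difference of -1.06 ± 0.10 (edgeR adjusted p = 4.17e-08). Bell-L gave 11.7, 10.3 and 10.5 CPM and Bell-B 6.59, 8.39 and 8.77, a difference of -0.45 ± 0.09 (edgeR adjusted p = 6.95e-05) that crossed the limit on the fold only without Bell-B replicate 3 (-0.54). This bell-stage difference did not pass the test with all 24 libraries in 1 fit (edgeR adjusted p = 0.26). The cultured parts were low, at 5.58, 3.58 and 5.50 CPM and at 2.36, 2.37 and 2.56, and differed by -1.02 ± 0.15 (edgeR adjusted p = 2.59e-06).

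**Figure D4:**
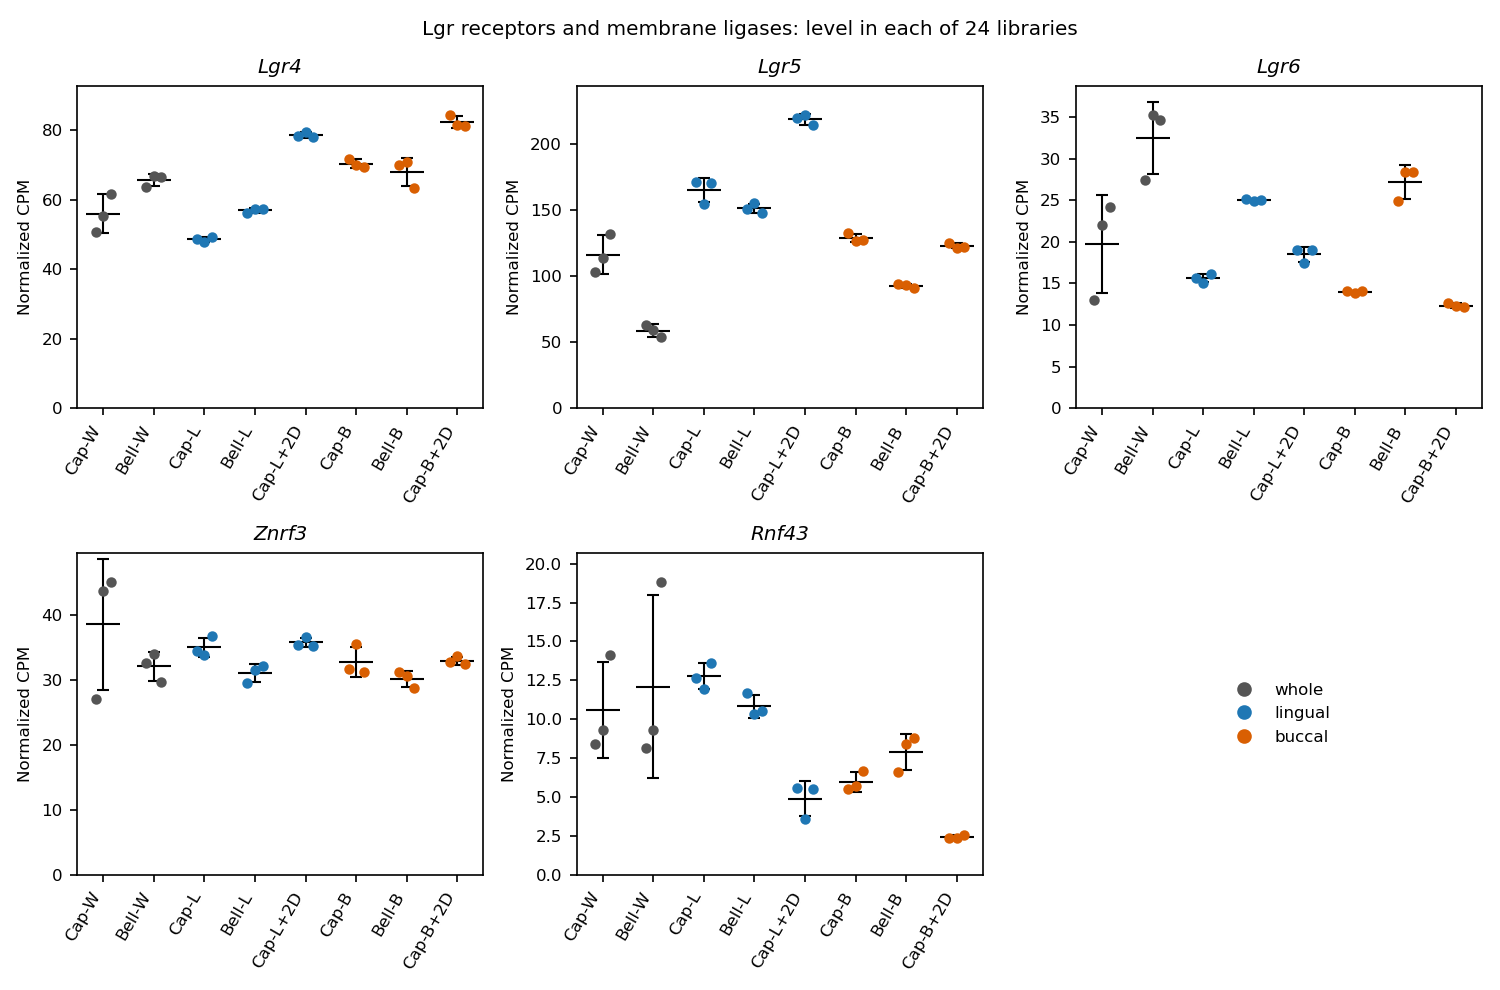
Normalized CPM (vertical axes, from 0) of the 3 Lgr receptors and both ligases in each of the 24 libraries by group, with points, marks and bars as in the plot of the ligands. Lgr5 was highest in Cap-L+2D with a mean of 219 CPM and lowest in Bell-W with 58.8 CPM, and Rnf43 fell to a mean of 2.43 CPM in Cap-B+2D.

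Markers of other cell types differed between the parts as well. The 12 epithelial markers summed to 469 to 515 CPM in Cap-L and 330 to 344 in Cap-B, to 779 to 809 in Bell-L and 566 to 585 in Bell-B, and to 325 to 354 in Cap-L+2D and 89.5 to 89.7 in Cap-B+2D, where Shh and Sp6 were at or under 3 counts in every library. The keratin gene Krt14 averaged 95.2 CPM in Cap-L+2D and 6.45 in Cap-B+2D. The 8 skeletal muscle markers went the other way, at 13.8 to 15.1 CPM in Cap-L against 118 to 132 in Cap-B, 71.0 to 78.0 in Bell-L against 533 to 565 in Bell-B, and 203 to 219 in Cap-L+2D against 2337 to 2526 in Cap-B+2D. The muscle gene Ckm was at or under 3 counts in Cap-L, Cap-B and Cap-L+2D. The 7 osteoblast markers summed to 527 to 551 CPM in Cap-L and 211 to 221 in Cap-B, to 437 to 464 in Bell-L and 297 to 304 in Bell-B, and to 2112 to 2137 in Cap-L+2D and 463 to 487 in Cap-B+2D. At the bell stage they were split, with 2 called higher in Bell-L, 2 called higher in Bell-B and 2 tested but not called. The sum of the 6 Schwann and glial markers was higher on the buccal side, most of all in culture, at 16.7 to 17.9 CPM in Cap-L+2D against 96.5 to 99.6 in Cap-B+2D. All 6 were called higher in Cap-B at the cap stage. In culture 4 of them were tested, of which 3 were called higher in Cap-B+2D and 1 in Cap-L+2D. The 7 endothelial markers stood at 417 to 420 CPM in Cap-L+2D against 169 to 174 in Cap-B+2D, the 6 cartilage markers at 264 to 280 CPM in Cap-L against 126 to 131 in Cap-B, and the macrophage markers at 199 CPM or more in Bell-L against 116 to 122 in Bell-B. The part of these other cells in the side differences of the 9 genes was not tested.

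The change from cap to bell was compared in each part and in undivided mesenchyme, with log2 fold changes as bell over cap. In the lingual part 4 of 9 genes were called, against 20.0% of all genes tested: Rspo2, Rspo4 and Lgr6 rose and Rspo3 fell. In the buccal part 2 of 9 were called, against 18.7% of all genes (12.0% rising), and both, Rspo4 and Lgr6, rose. In undivided mesenchyme 5 of 9 were called, against 14.5% of all genes: Rspo1, Rspo2 and Rspo4 rose, and Rspo3 and Lgr5 fell. Rspo4 rose in all 3 comparisons.

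Among the ligands, Rspo4 rose 3.73-fold from Cap-L to Bell-L (1.90 ± 0.13, edgeR adjusted p = 3.81e-12) and 6.33-fold from Cap-B to Bell-B (2.66 ± 0.16, edgeR adjusted p = 1.09e-15). In undivided mesenchyme it went from 0.45, 0.59 and 0.36 CPM, which is 8 to 18 counts in a library, to 12.7, 12.6 and 11.1 CPM. That was 25.1-fold, with a 95% interval on the log2 scale of 4.05 to 5.25 (edgeR adjusted p = 0.000143). Rspo2 rose 2.25-fold in the lingual part (1.17 ± 0.06, edgeR adjusted p = 7.05e-14) and 3.14-fold in undivided mesenchyme (1.65 ± 0.20, edgeR adjusted p = 0.00189), from 19.8, 12.5 and 13.7 CPM to 39.4, 56.1 and 49.6. In the buccal part, where it already was higher at the cap stage, it differed by 0.44 ± 0.05 (edgeR adjusted p = 6.46e-09), under the limit on the fold. Rspo1 was called in undivided mesenchyme alone, at 23.1, 32.9 and 26.8 CPM in Cap-W and 50.1, 51.3 and 49.6 in Bell-W (0.85 ± 0.15, edgeR adjusted p = 0.00796). Its change in the lingual part was -0.09 (95% interval -0.20 to 0.01) and in the buccal part 0.45 ± 0.05 (edgeR adjusted p = 3.50e-09).

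Rspo3 fell 1.92-fold from Cap-L to Bell-L (-0.94 ± 0.06, edgeR adjusted p = 4.83e-13) and differed by -0.47 ± 0.08 between Cap-B and Bell-B (edgeR adjusted p = 6.75e-06). The buccal value crossed the limit on the fold without Cap-B replicate 3, Bell-B replicate 2 or Bell-B replicate 3 (-0.51, -0.52 and -0.50). In undivided mesenchyme it went from 47.7, 34.1 and 33.8 CPM to 23.2, 25.9 and 14.5, a change of -0.87 ± 0.23 (edgeR adjusted p = 0.0398). Of the 6 libraries there, leaving out any other than Bell-W replicate 3 ended this call: the changes were -0.71, -0.95 and -0.95 without Cap-W replicates 1, 2 and 3, and -0.91 and -1.04 without Bell-W replicates 1 and 2, with edgeR adjusted p from 0.0571 to 0.0872. Without Bell-W replicate 3 the change was -0.66 (edgeR adjusted p = 0.0470).

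Among the receptors, Lgr6 rose from 15.6, 15.1 and 16.1 CPM in Cap-L to 25.1, 24.9 and 25.04 in Bell-L (0.69 ± 0.06, edgeR adjusted p = 9.28e-10). In the buccal part it rose from 14.1, 13.8 and 14.1 CPM to 24.9, 28.4 and 28.3 (0.95 ± 0.06, edgeR adjusted p = 2.54e-14). Undivided mesenchyme gave 13.0, 22.0 and 24.2 CPM and then 27.5, 35.2 and 34.6, a change of 0.69 ± 0.24 that did not pass the test (edgeR adjusted p = 0.0954). The same change passed under DESeq2 (0.69, adjusted p = 0.0392), with no filter (edgeR adjusted p = 0.0431), with a replicate block (edgeR adjusted p = 0.0251) and with all 24 libraries in 1 fit (edgeR adjusted p = 0.000205). Lgr5 fell 2.00-fold in undivided mesenchyme, from 103, 114 and 132 CPM to 63.3, 59.4 and 53.8 (-0.999 ± 0.133, edgeR adjusted p = 0.00266). Its change was -0.12 ± 0.05 in the lingual part (edgeR adjusted p = 0.0286) and -0.48 ± 0.03 in the buccal part (edgeR adjusted p = 1.26e-13). Lgr4 differed by 0.24 ± 0.04 in the lingual part (edgeR adjusted p = 7.72e-05), by -0.06 in the buccal part (95% interval -0.14 to 0.03) and by 0.21 in undivided mesenchyme (-0.05 to 0.47).

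Without Cap-W replicate 1, the changes in undivided mesenchyme were 0.72 for Rspo1, 1.85 for Rspo2, 4.598 for Rspo4, -1.09 for Lgr5 and 0.46 for Lgr6. Without Bell-W replicate 3 they were 0.855, 1.63, 4.71, -0.94 and 0.64. Rspo1, Rspo2, Rspo4 and Lgr5 were called either way, and Lgr6 was not (edgeR adjusted p = 0.0727 and 0.188). Lgr4 was at 0.13 and 0.20, called in neither case.

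The ligases were not called with stage. Znrf3 differed by -0.16 ± 0.05 in the lingual part (edgeR adjusted p = 0.0152), by -0.13 ± 0.05 in the buccal part (edgeR adjusted p = 0.0436) and by -0.29 ± 0.20 in undivided mesenchyme (edgeR adjusted p = 0.397). Without Cap-W replicate 1 the last value was -0.498 (edgeR adjusted p = 0.0201), past the test and just under the limit on the fold, and without Bell-W replicate 3 it was -0.24 (edgeR adjusted p = 0.563). Rnf43 differed by -0.22 in the lingual part (95% interval -0.43 to -0.02, edgeR adjusted p = 0.0644) and by 0.39 ± 0.11 in the buccal part (edgeR adjusted p = 0.00310), where leaving out Bell-B replicate 1 brought it past the limit on the fold (0.51). In undivided mesenchyme Rnf43 stood at 8.40, 9.28 and 14.1 CPM in Cap-W and 8.15, 9.29 and 18.8 in Bell-W, where the highest value belonged to replicate 3, the library with the most epithelial marker RNA. Its change of 0.18 (95% interval -0.66 to 1.01) was -0.30 without that library and 0.026 without Cap-W replicate 1. The epithelial markers summed to 374 to 567 CPM in Cap-W. Markers of other cells moved with stage as well. From Cap-L to Bell-L the erythroid sum went from 453 to 514 CPM to 56.5 to 60.9, the 6 macrophage markers from 52.5 to 56.5 CPM to at least 199, and the muscle sum rose as given above. Of the 5 erythroid markers, 3 were called lower and 2 higher in Bell-L than in Cap-L. From Cap-B to Bell-B the erythroid sum went from 519 to 540 CPM to 51.2 to 57.7 and the macrophage sum from 58.9 to 65.0 CPM to 116 to 122. There 3 erythroid markers were called lower and 1 higher in Bell-B. In undivided mesenchyme the osteoblast sum went from 72.04 to 146 CPM to 290 to 376. The part of these cells in the stage changes was not tested.

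Culture was compared with the uncultured cap part and with the bell part of the same side. These comparisons share libraries, so they are not independent of each other or of the stage comparisons. Against the uncultured cap part, 5 of 9 genes were called in the lingual part, where 35.4% of all genes were: Rspo2, Rspo4 and Lgr4 rose, and Rspo3 and Rnf43 fell. In the buccal part 2 of 9 were called, against 34.5% of all genes: Rspo4 rose and Rnf43 fell.

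Rspo2 rose 2.91-fold in the cultured lingual part (1.54 ± 0.06, edgeR adjusted p = 5.63e-17), and its change in the buccal part was -0.24 ± 0.05 (edgeR adjusted p = 0.000159). Rspo4 rose 6.11-fold in the lingual part (2.61 ± 0.12, edgeR adjusted p = 4.31e-16) and 2.26-fold in the buccal part (1.17 ± 0.19, edgeR adjusted p = 2.45e-06). Rspo3 fell in the lingual part by 0.55 on the log2 scale (SE 0.05, edgeR adjusted p = 2.49e-09), and its change in the buccal part was 0.08 (95% interval -0.07 to 0.23). Rspo1 differed by 0.25 ± 0.05 in the lingual part (edgeR adjusted p = 9.62e-05) and by 0.26 ± 0.05 in the buccal part (edgeR adjusted p = 2.84e-05).

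Lgr4 rose 1.63-fold in the cultured lingual part, to 78.3, 79.6 and 78.1 CPM (0.70 ± 0.04, edgeR adjusted p = 2.99e-13), and differed by 0.21 ± 0.04 in the buccal part, at 84.3, 81.4 and 81.2 CPM (edgeR adjusted p = 3.93e-05). Lgr5 differed by 0.41 ± 0.04 in the lingual part (edgeR adjusted p = 1.53e-08) and by -0.09 ± 0.03 in the buccal part (edgeR adjusted p = 0.0236). Rnf43 fell 2.58-fold in the lingual part (-1.37 ± 0.11, edgeR adjusted p = 7.21e-11) and 2.50-fold in the buccal part (-1.32 ± 0.13, edgeR adjusted p = 1.55e-10). Znrf3 differed by 0.04 and -0.01, with 95% intervals of -0.07 to 0.15 and -0.12 to 0.09. Marker sums of other cells moved with culture too. The epithelial sum went from 469 to 515 CPM to 325 to 354 on the lingual side. On the buccal side it went from 330 to 344 CPM to 89.5 to 89.7. The muscle sum went from 13.8 to 15.1 CPM to 203 to 219 and from 118 to 132 CPM to 2337 to 2526. The osteoblast sum rose on both sides, and the endothelial sum fell from 419 to 429 CPM to 169 to 174 on the buccal side. The 5 erythroid markers summed to 453 to 540 CPM in the uncultured cap parts and to 4.35 to 9.52 in the cultured ones. The part of these cells in the fall of Rnf43 and the other culture changes was not tested.

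**Figure D5:**
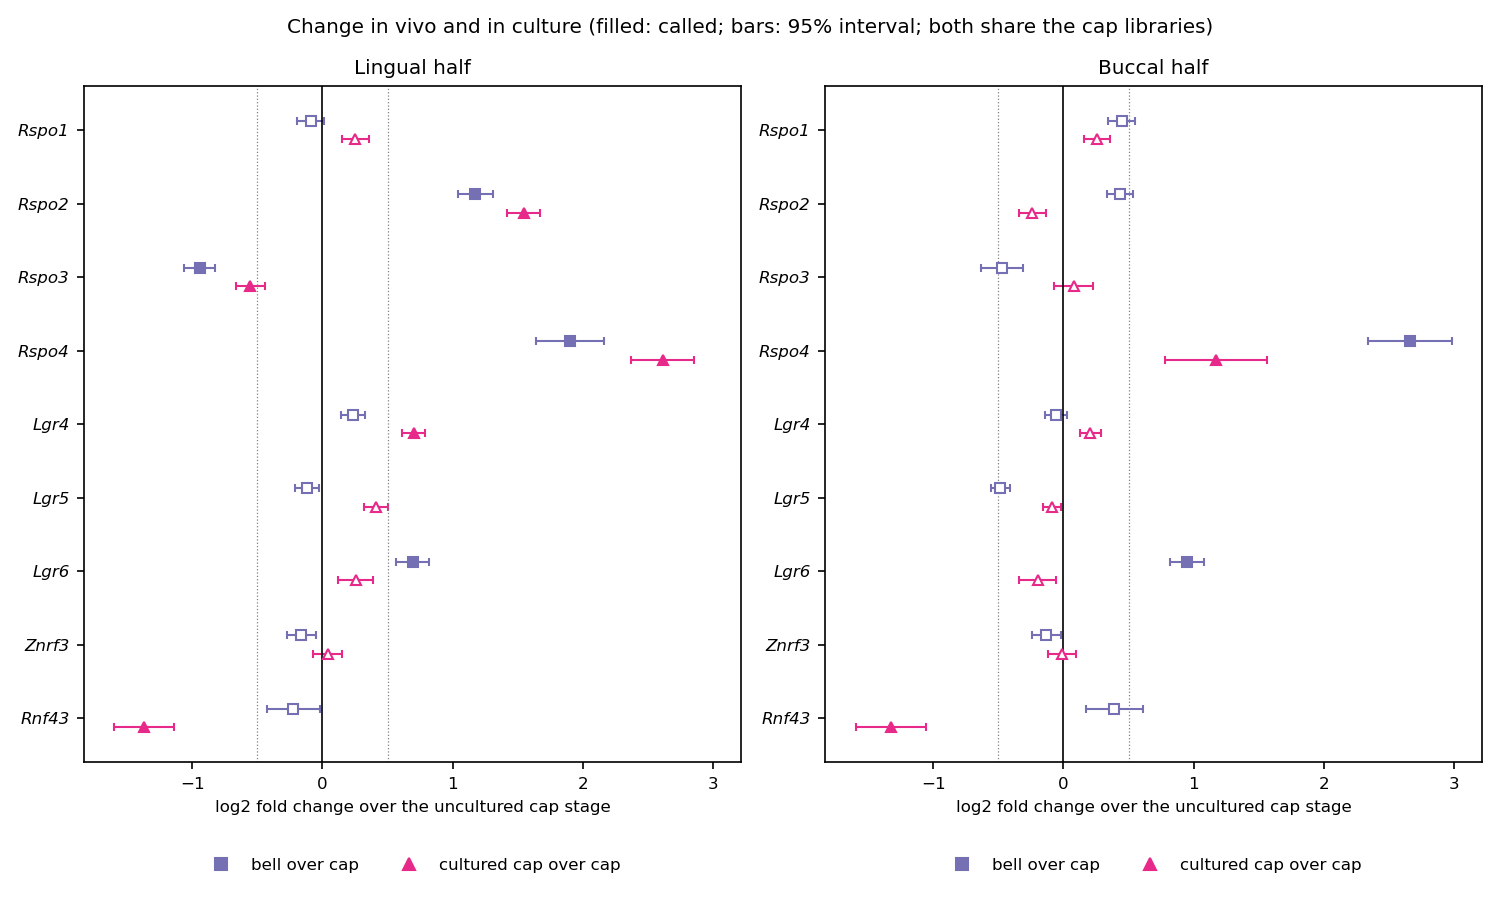
Log2 fold change over the uncultured cap stage, with its 95% interval (horizontal axes), for the bell stage and for 2 days of culture, for each part. Filled symbols were called, and both contrasts use the same cap libraries. Rspo4 was to the right in all 4 contrasts, and Rnf43 was called in both culture contrasts and in neither stage contrast.

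Against the bell part of the same side, 3 of 9 genes were called in the lingual part, where 31.2% of all genes were: Rspo4 (0.71 ± 0.09, edgeR adjusted p = 3.60e-07) and Lgr5 (0.53 ± 0.05, edgeR adjusted p = 2.06e-10) were higher after culture and Rnf43 was lower (-1.15 ± 0.12, edgeR adjusted p = 4.50e-09). In the buccal part 5 of 9 were called, against 31.8% of all genes. Rspo3 was higher after culture (0.55 ± 0.07, edgeR adjusted p = 9.05e-08), a call that ended without Cap-B+2D replicate 1 (0.48) or Bell-B replicate 1 (0.48). Rspo2 (-0.67 ± 0.05, edgeR adjusted p = 6.37e-14), Rspo4 (-1.49 ± 0.12, edgeR adjusted p = 1.52e-12), Lgr6 (-1.15 ± 0.06, edgeR adjusted p = 2.68e-17) and Rnf43 (-1.71 ± 0.12, edgeR adjusted p = 3.68e-14) were lower. Cultured tissue thus stood above the bell part for Rspo4 on the lingual side and below it on the buccal side.

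Whether the side difference itself changed was tested as an interaction, called at an edgeR adjusted p under 0.05 with no limit on the fold. It is the side difference at the bell stage, or after culture, less that at the cap stage. With stage, 8 of 9 genes passed, where 32.5% of all genes did, and Znrf3 did not (0.02, 95% interval -0.14 to 0.18). Among the ligands, the buccal excess of Rspo2 shrank (-0.75 ± 0.08, edgeR adjusted p = 6.84e-09), and the lingual excess of Rspo3 shrank as well (0.46 ± 0.09, edgeR adjusted p = 0.000231). The lingual excess of Rspo1 was lost (0.53 ± 0.07, edgeR adjusted p = 7.74e-07), and its small buccal excess at the bell stage was not called. The Rspo4 interaction was 0.75 ± 0.23 (edgeR adjusted p = 0.0126), which no longer passed without Cap-B replicate 3 (0.52, edgeR adjusted p = 0.0962). Among the receptors, Lgr4 (-0.31 ± 0.06, edgeR adjusted p = 0.000269) and Lgr5 (-0.37 ± 0.06, edgeR adjusted p = 1.11e-05) moved toward the lingual side. The Lgr6 interaction of 0.24 ± 0.09 (edgeR adjusted p = 0.0332) did not pass when any of 6 libraries was left out, namely Cap-L replicate 3, Cap-B replicate 2, Bell-L replicates 2 and 3 and Bell-B replicates 2 and 3 (0.24, 0.25, 0.24, 0.24, 0.21 and 0.21, edgeR adjusted p from 0.0509 to 0.0959), nor under DESeq2 (0.26, adjusted p = 0.0566). The lingual excess of Rnf43 shrank by 0.60 ± 0.14 (edgeR adjusted p = 0.00126). With all 24 libraries in 1 fit, the interactions of Rspo3 (0.49, edgeR adjusted p = 0.161), Lgr6 (0.28, edgeR adjusted p = 0.438) and Rnf43 (0.64, edgeR adjusted p = 0.269) did not pass.

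With culture, 6 of 9 genes passed, where 35.5% of all genes did. Rspo2 had the largest of these interactions, -1.79 ± 0.09 (edgeR adjusted p = 9.78e-17), as its excess passed from the buccal to the lingual part. The interaction was -1.45 ± 0.25 for Rspo4 (edgeR adjusted p = 3.27e-05) and 0.62 ± 0.09 for Rspo3, whose lingual excess shrank (edgeR adjusted p = 2.52e-06). The receptors Lgr4, Lgr5 and Lgr6 moved toward the lingual side, with interactions of -0.50 ± 0.06, -0.51 ± 0.06 and -0.46 ± 0.09 and edgeR adjusted p of 4.08e-08, 4.78e-08 and 0.000227. That of Lgr6 did not pass with all 24 libraries in 1 fit (-0.42, edgeR adjusted p = 0.160). For Rspo1 the interaction was 0.00, with a 95% interval of -0.16 to 0.16, for Znrf3 -0.06 (-0.22 to 0.10), and for Rnf43 0.04 (-0.34 to 0.42).

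Other genes of the pathway were counted from fixed lists of 19 Wnt ligands, 12 receptors (the Frizzled genes with Lrp5 and Lrp6) and 12 feedback targets of Wnt/beta-catenin signaling outside the 9 genes. At the cap stage, 6 of 15 ligands tested were higher in Cap-B and 5 in Cap-L, where 17.5% of all genes were called (2144 higher in Cap-B and 1467 in Cap-L). Wnt16 was 4.52-fold higher in Cap-B (21.0 ± 1.1 against 4.78 ± 0.79 CPM, edgeR adjusted p = 3.49e-12) and Wnt10b was higher in Cap-L (15.0 ± 1.0 against 4.63 ± 0.52 CPM, edgeR adjusted p = 6.39e-11). At the bell stage the counts were 2 and 3 of 15, against 12.9% of all genes. Between the cultured parts 7 of 12 ligands were higher in Cap-L+2D and 3 in Cap-B+2D, with a median difference of -0.92 over the list, against 25.1% of all genes called. Wnt11 stood at 43.0 ± 1.5 CPM in Cap-L+2D and 13.5 ± 0.7 in Cap-B+2D (edgeR adjusted p = 2.48e-18). Wnt9a rose 2.97-fold from Cap-L to Cap-L+2D (31.4 ± 1.3 to 92.7 ± 4.3 CPM, edgeR adjusted p = 4.16e-19). The interaction with culture passed for 12 of 15 ligands, of which 10 moved toward the lingual side, where 35.5% of all genes passed, 4316 of 7842 toward the lingual side.

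Of the 12 Wnt receptors, 4 were higher in Cap-L and none in Cap-B, 1 was higher in Bell-L and none in Bell-B, and 2 were higher on each side in culture, beside 17.5%, 12.9% and 25.1% of all genes called in these comparisons. Lrp6, a co-receptor of Wnt ligands, differed by 0.47 ± 0.05 at the cap stage (230 ± 3 CPM in Cap-B, 169 ± 11 in Cap-L, edgeR adjusted p = 5.77e-07), under the limit on the fold. Fzd1 was 2.22-fold higher on the lingual side after culture (344 ± 4 against 156 ± 3 CPM, edgeR adjusted p = 3.80e-19), and Fzd4 was higher in Cap-B+2D (80.0 ± 2.0 against 27.02 ± 0.75 CPM, edgeR adjusted p = 9.93e-20).

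The feedback targets were called on both sides. At the cap stage 3 of 11 were higher in Cap-B and 2 in Cap-L, and in culture 5 of 11 were higher in Cap-L+2D and 2 in Cap-B+2D, against 17.5% and 25.1% of all genes called. The targets with the largest differences in culture were higher in Cap-L+2D: Sp5 by 8.06-fold (edgeR adjusted p = 7.18e-13), the Wnt inhibitor Dkk1 by 2.90-fold (edgeR adjusted p = 4.11e-12) and Tcf7, a relative of Lef1, by 2.71-fold (edgeR adjusted p = 8.74e-19). Lef1, a factor that acts with beta-catenin, was higher in the buccal part at the cap stage (114 ± 4 against 70.2 ± 1.6 CPM, 0.72 ± 0.05, edgeR adjusted p = 2.63e-10) and in culture (69.7 ± 2.0 against 31.8 ± 0.8 CPM, 1.13 ± 0.05, edgeR adjusted p = 7.61e-17). Axin2, a general readout of the pathway, differed by 0.30 ± 0.05 at the cap stage (edgeR adjusted p = 6.90e-05), by -0.05 at the bell stage and by 0.04 in culture (edgeR adjusted p = 0.286 and 0.400). It was called in no comparison of 2 groups, while its interactions with stage and culture passed at -0.35 ± 0.06 and -0.27 ± 0.06 (edgeR adjusted p = 2.03e-05 and 0.000650). From cap to bell, 5 of 12 targets were called as rising on the lingual side and 6 on the buccal side. None were called as falling, where 20.0% and 18.7% of all genes were called. Axin2 and Lef1 were lower at the bell stage but under the limit on the fold. They changed by -0.12 and -0.20 on the lingual side (edgeR adjusted p = 0.0268 and 0.000714). On the buccal side they changed by -0.47 and -0.33 (edgeR adjusted p = 9.70e-14 and 4.06e-09). In undivided mesenchyme 10 of 12 were called as rising and none as falling, where 14.5% of all genes were called and 2155 of 20940 rose. With any 1 library left out, 8 to 10 were called as rising and 0 to 1 as falling. Axin2 changed by -0.39 and Lef1 by 0.70 there with all libraries (edgeR adjusted p = 0.0710 and 0.00437). Wif1, a secreted Wnt inhibitor, rose from 65.1 ± 2.2 to 147 ± 1 CPM in the lingual part and from 47.7 ± 1.0 to 173 ± 0.6 in the buccal part (edgeR adjusted p = 2.21e-17 and 1.96e-28).

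The genes whose pattern was most like each ligand were ranked by Pearson's r of log2 CPM over the 24 libraries, among 15835 genes. These are descriptions, since libraries of a group share their tissue and points are not independent. For Rspo4 the closest gene was Wif1 (r = 0.980), followed by Gcnt4 (0.962) and Pcyt1a (0.956). For Rspo1 they were Sema7a (0.965), Smpd3 (0.961) and Podnl1 (0.945), for Rspo2 Papss2 (0.936), Grin2a (0.925) and Parva (0.907), and for Rspo3 Enpep (0.964), Cyp26b1 (0.950) and Spire1 (0.926). Among the 9 genes themselves, Rspo1 and Rspo4 were the most alike (r = 0.875), and Lgr4 and Rnf43 the most opposed (r = -0.787).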

How the data were processed

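Read pairs from 24 libraries had been counted by the authors: the deposited values are raw counts per gene for 56748 genes, without normalization. Per the file header they came from featureCounts 2.0.0 in paired mode over the exons of Ensembl release 107 (GRCm39), with strand ignored and without multi-mapping or multi-gene read pairs. The submitters' processing notes list FastQC 0.12.1, Trimmomatic 0.39, Bowtie 1.2.3, Subread 2.0.3 and DESeq2 1.40.2, while the paper's methods name other trimming and alignment tools and a stranded kit, and which were used could not be settled. Symbols came from the Ensembl release used by GENCODE vM39 and matched 56017 identifiers. Only counts on the 24 named columns were used.

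Libraries were grouped by their labels. Counts were fitted per comparison with edgeR 4.0.16 (TMM, filterByExpr, quasi-likelihood test, Benjamini-Hochberg adjustment) in R 4.3.3, over 6 libraries for 2 groups, 9 for the 3 groups of a side, and 12 for interactions. The study's methods name DESeq2, which was run as an alternative, version 1.42.0. The thresholds of a call were 0.05 on the adjusted p and 0.5 on the absolute log2 fold change, with the first alone for interactions. CPM are counts per 1000000 with TMM over all libraries. RPKM divide these by exon length. Intervals are 95% intervals of the fit. Floors of 3 counts cover counting error only. The 9 genes were named by symbol. Of each other Wnt list, up to 3 called genes with the largest change were eligible to be named, with Axin2, Lef1, Lrp5 and Lrp6. The genes and lists were chosen with earlier results of these data known. Alternatives were RLE and library-total scaling, DESeq2, other filters, a replicate block, all libraries in 1 fit, no limit on the fold, and each library left out in turn. Leave-one-out counts of the Wnt lists were added after seeing the data. The fits were tested on simulated counts.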

Additional observations from a re-analysis of the deposited data

Results flagged for a closer look

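Every interaction with stage or culture that passed edgeR's test is listed here for the 9 genes and for the 13 genes of the Wnt lists named above, because the side difference (log2, buccal over lingual) was not the same in both settings compared. Between the cap and the bell stage, the side difference changed by 0.53 for Rspo1, -0.75 for Rspo2, 0.46 for Rspo3 and 0.75 for Rspo4, by -0.31 for Lgr4, -0.37 for Lgr5 and 0.24 for Lgr6, and by 0.60 for Rnf43. Between the cap stage and the cultured cap parts, it changed by -1.79 for Rspo2, 0.62 for Rspo3 and -1.45 for Rspo4, and by -0.50 for Lgr4, -0.51 for Lgr5 and -0.46 for Lgr6. Both sets share the cap libraries. Rspo2, Lgr4 and Lgr5 moved toward the lingual part in both, and Rspo3 toward the buccal part in both. Rspo4 and Lgr6 moved toward the buccal part with stage and toward the lingual part with culture, and that contrast was not tested itself.

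Of the named Wnt ligands, the side difference changed with stage by -0.24 for Wnt9a, 1.33 for Wnt10b, -1.92 for Wnt11 and -0.73 for Wnt16, and with culture by -1.87, 0.54, -2.32 and -1.119. Of the receptors, Lrp6 changed by -0.35 with stage and by -0.42 with culture, and Fzd1 and Fzd4 by -0.56 and 1.12 with culture. Of the feedback targets, Axin2 changed by -0.35, Sp5 by 0.83, Tcf7 by 1.27, Dkk1 by 0.91 and Wif1 by 0.65 with stage. With culture, Axin2 changed by -0.27, Lef1 by 0.40, Tcf7 by -0.38, Dkk1 by -1.31 and Wif1 by -0.95.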

How the results depend on the processing

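Of 108 log2 differences of the 9 genes, 106 kept their direction and side of the threshold under RLE scaling, 104 under DESeq2 and with no filter, 101 under library totals and 100 with all 24 libraries in 1 fit. With at least 10 counts in every library, each one that could be fitted did so, which left out Rspo4 from Cap-W to Bell-W. With a library left out, 720 of 756 did.

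Directions that turned belonged to differences near 0. From Cap-B to Cap-B+2D, Znrf3 was 0.003 under RLE and DESeq2, 0.02 with no filter, 0.006 in the fit of all libraries and -0.053 to 0.045 with a library left out, and Rspo3 was -0.007 under library totals. From Cap-L to Cap-L+2D, Znrf3 was -0.11 under library totals. The interaction of Rspo1 with culture was 0.002 under RLE and DESeq2, 0.074 under library totals, 0.008 with no filter, 0.032 in the fit of all libraries and -0.047 to 0.043 with a library left out. That of Znrf3 was 0.013 under library totals, and that of Rnf43 was -0.14 to 0.15 with a library left out. The interaction of Znrf3 with stage was -0.013 to 0.095 with a library left out. Rnf43 from Cap-W to Bell-W was 0.18 with all libraries and -0.30 to 0.44 with a library left out, and it turned only without Bell-W replicate 3.

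Without the limit on the fold, all genes called numbered 8746, 7846 and 11569 for side at cap, bell and culture, 10725 and 10557 for lingual and buccal stage, 14126 and 14768 for lingual and buccal culture, and 13140 and 14449 for culture against bell. The 9 genes called then numbered 7 for side at the bell stage, 7 and 8 for lingual and buccal stage, 8 and 7 for culture, and 9 and 9 for culture against bell, since fewer conditions were asked. In the fit of all 24 libraries, 5887 genes were called for undivided stage, and 2581 and 4048 passed the interactions with stage and culture, with 5 of the 9 genes for stage (Rspo3, Lgr6 and Rnf43 no longer passed) and without Lgr6 for culture; the cause was not tested. With a library left out, genes called for undivided stage ranged from 1758 to 3057, and members from 4 to 5.

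Library totals shifted the median of all genes by -0.15 from Cap-L to Cap-L+2D and by -0.11 from Bell-L to Cap-L+2D. They moved the split of genes higher and lower from 4196 and 3397 to 3370 and 4974 in the first, from 3095 and 3591 to 2451 and 4534 in the second, from 3180 and 3957 to 4048 and 3261 for the interaction with stage, and from 3526 and 4316 to 4853 and 3371 for that with culture. The call of Lgr5 between Bell-L and Cap-L+2D (0.42) and of Rspo3 between Bell-B and Cap-B+2D (0.47) fell under the limit on the fold there, and Lgr6 between Bell-L and Cap-L+2D passed it (-0.55).

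Same-numbered libraries did not deviate together in every pair (lowest correlation -0.47), so the replicate block was an alternative only. It changed 1 call, Lgr6 from Cap-W to Bell-W, which then passed (0.74, adjusted p = 0.0251), and the 9 genes called there numbered 6.

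Rspo4 in Cap-W and Cap-B rests on 8 to 32 counts a library, which limits its precision.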

Other observations

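The undivided groups did not always lie between their parts. Rspo4 averaged 0.47 CPM in Cap-W, under Cap-L (1.62) and Cap-B (1.13), and 12.1 in Bell-W, above Bell-L (6.06) and Bell-B (7.13), with no overlap of the libraries in either case. Lgr5 averaged 116 CPM in Cap-W against 166 in Cap-L and 129 in Cap-B, and 58.8 in Bell-W against 151 in Bell-L and 92.7 in Bell-B. Rspo1 averaged 27.6 CPM in Cap-W against 45.1 and 34.1 in the parts, and 50.3 in Bell-W against 42.2 and 46.7. Rspo2, at 15.4 CPM, and Rspo3, at 38.5 CPM, lay between their parts in Cap-W. In Bell-W, Rspo2 averaged 48.3 CPM against 28.8 in Bell-L and 39.3 in Bell-B, and Rspo3 averaged 21.2 CPM against 21.0 and 10.7, with libraries of Bell-W overlapping those of Bell-B for Rspo2 and of Bell-L for Rspo3. These differences were not tested. Markers of other cells also stood apart from both parts. The endothelial sum was 193 to 203 CPM in Cap-W, 467 to 482 in Cap-L and 419 to 429 in Cap-B. The osteoblast sum was 72.04 to 146 CPM in Cap-W, under both parts, and the erythroid sum was 834 to 1079, above both. In Bell-W the muscle sum was 7.07 to 12.6 CPM, under both parts. Their part in the levels above was not tested.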
